A study of Homo sapiens with 19 samples.

Results

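The cytochrome P450 (CYP) family was followed across every group of a single-cell RNA-seq study of human liver organoids (HLOs). The organoids were grown from W01, a wild-type human pluripotent stem cell line from WiCell that all groups share. Members were chosen by name and a minimum level: of 36601 genes listed for the first library of the OA experiment, 55 had a symbol of the form CYP, number, letter, number, and 25 of them reached 1 CPM (counts scaled to library size) in the mean of at least 1 of the 9 groups. Of those, 24 are described here by name, while counts and medians are over all 25, and the choice used no contrast between groups. Earlier results of these data were known when members and gene lists were chosen. The 19 libraries comprised 3 of untreated organoids kept in ultra-low attachment (ULA) culture to day 21, 2 of untreated ULA organoids at day 34, and 14 of organoids grown on an orbital shaker (OS) and collected at day 25. The OS groups had 2 libraries each: untreated, a TGFB1 control and TGFB1 at 10 ng/ml, a PA control and PA at 500 µM, and an OA control and OA at 500 µM. Treatment lasted 5 days for TGFB1 and PA; for OA no duration was found in the labels, which leave the abbreviations PA and OA unexplained and do not say what the controls received. All organoids come from 1 line, and the labels do not say whether replicates were separate cultures, so the p-values measure the spread between libraries, which may be technical.

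Cytochrome P450 enzymes are haem proteins that insert an oxygen atom into lipids, hormones and foreign compounds, and most take their electrons from cytochrome P450 oxidoreductase (POR) in the endoplasmic reticulum or from ferredoxin in mitochondria. In liver, families 1 to 3 carry most oxidation of drugs, and members of several other families make or convert cholesterol and bile acids. Their genes are classical targets of nuclear receptors such as NR1I2 (PXR), NR1I3 (CAR) and NR1H4 (FXR), of the aryl hydrocarbon receptor AHR, and of the hepatocyte factor HNF4A.

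Libraries held 3089 to 12427 cells after filtering (at least 500 genes and at most 20% mitochondrial counts) and 6880807 to 91184130 unique molecular identifier (UMI) counts. Levels are CPM of the counts summed over all kept cells of a library, so a lower level can mean fewer cells of a type or less RNA per cell, which cannot be told apart. The ULA libraries listed 58721 genes, the TGFB1 and PA libraries 33538, and the OA and untreated OS libraries 36601. The labels do not assign the untreated OS libraries to an experiment. They are counted here with the OA experiment, whose gene list and, per the file headers, Cell Ranger version they share. Read assignment can shift with such lists: CYP2C18 and CYP2C19 share their strand with a read-through gene, and CYP3A7 with CYP3A7-CYP3A51P, both listed in the ULA, TGFB1 and PA libraries and not in the OA experiment, and CYP51A1 shares it with a gene listed for ULA libraries alone. The CYP2C genes, and CYP3A5 with CYP3A7, are also close paralogs whose reads could be split between them. Summed hepatocyte markers (15 genes) ranged from 9093 to 25560 CPM in the OA experiment with its untreated libraries, from 17350 to 24090 CPM in the PA experiment, from 2724 to 5403 CPM in the TGFB1 experiment, from 2455 to 2880 CPM at ULA day 21 and from 99.24 to 864 CPM at ULA day 34. Of those markers AHSG was at 0 in TGFB1 control replicate 1 and OA replicate 2, and TF in TGFB1 replicate 2. At most 0.581% of the barcodes of the smaller library were shared between any pair of libraries.

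The members present differed from the textbook profile of adult liver. CYP3A4, the dominant adult CYP3A enzyme, did not exceed a group mean of 0.37 CPM, CYP1A2 0.05 CPM, CYP2A6 0.03 CPM, and CYP7A1, the rate-limiting enzyme of bile acid synthesis, 0.03 CPM. The member just inside the limit was CYP17A1, a steroid hormone synthesis enzyme, at 2.00 CPM in OA, and the members just outside were CYP2D6 at 0.86 CPM and CYP2E1 at 0.63 CPM, both in the TGFB1 control. The number of members at 1 CPM or more was 20 at ULA day 21, 17 at ULA day 34, 20 in untreated OS, 22 in the TGFB1 control, 16 in TGFB1, 21 in the PA control, 19 in PA, 20 in the OA control and 19 in OA. CYP51A1, the lanosterol demethylase of cholesterol synthesis, lay between 3.49 and 13.7 CPM in the 13 ULA, TGFB1 and PA libraries and between 115 and 526 CPM in the 6 untreated OS, OA control and OA libraries. The OA and untreated OS libraries differ from the others in experiment, gene list and, per the file headers, Cell Ranger version, which cannot be told apart here, while the gene overlapping CYP51A1 is listed for ULA libraries alone. So levels are set side by side only within an experiment. CYP2R1, which hydroxylates vitamin D, lay between 3.27 and 7.18 CPM in the 6 libraries of the OA experiment, and CYP20A1, an orphan member without a settled substrate, between 18.8 and 50.9 CPM. CYP2U1, a fatty acid hydroxylase, lay there between 0.402 and 3.03 CPM, and CYP7B1, an oxysterol hydroxylase, between 1.13 and 5.71 CPM; neither was called in any comparison.

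**Figure D1:**
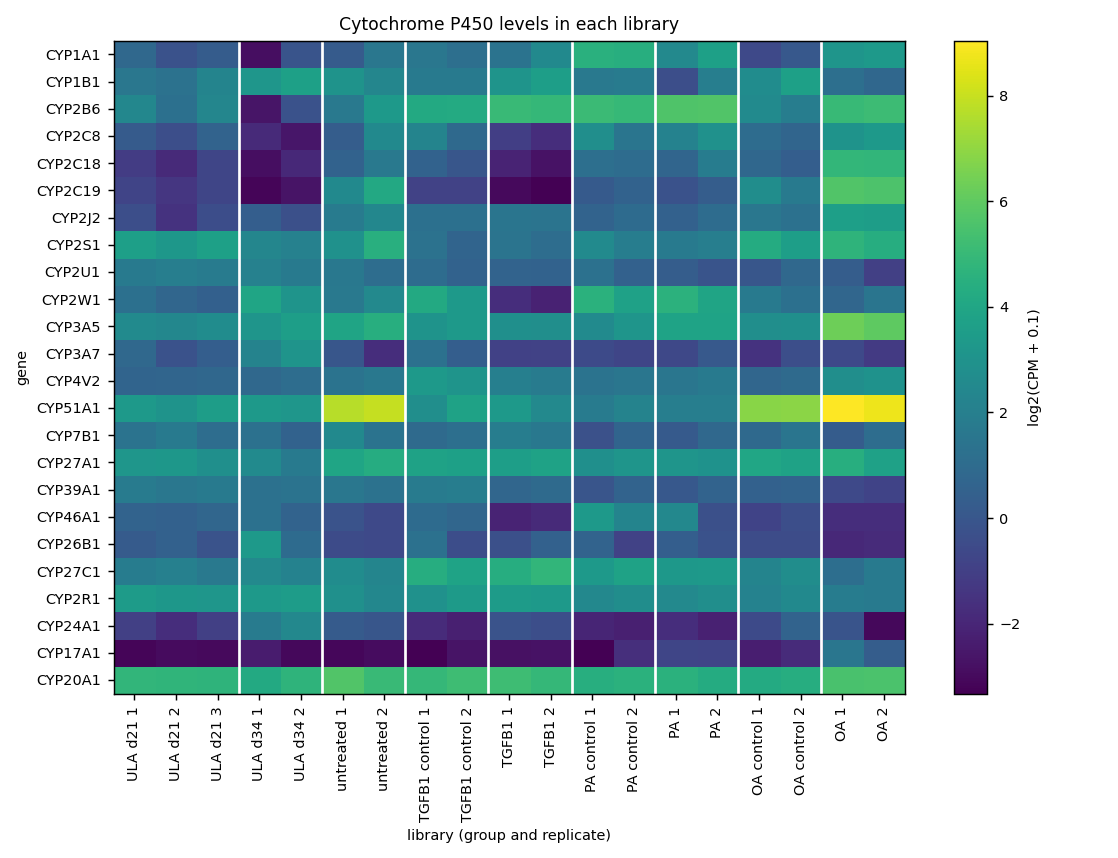
Heat map of log2(CPM + 0.1) for the 24 named members (one per line, ordered by role) in the 19 libraries (columns, by group). Within the OA experiment CYP3A5, CYP2C18 and CYP2C19 are brightest in both OA libraries, and within the TGFB1 experiment CYP2W1 is darkest in both TGFB1 libraries.

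The upstream windows of 3 drug-metabolizing members described in what follows are shown because they hold the same short motif. RefSeq (GRCh38.p14) supplied the 250 bases before the start of 39 of the 55 genes and 19 of the 25 reported members; CYP2C18, CYP1B1, CYP7B1, CYP24A1 and CYP46A1 were among those with no entry. The motif CAAAGTCC, read as GGACTTTG on the other strand, is the core of the element that HNF4A binds, and it was chosen after the windows had been read. It occurs on either strand in 357 of 35116 windows of this length (1.02%) and in 4 of the 19 members, once each: CYP2B6, CYP2C19, CYP2C8 and CYP2R1. As the motif was picked from these windows, the shares cannot be compared. CYP2R1, whose window is not shown, was not called in any comparison. Capitals mark it in the windows below, which are written 5′ to 3′ on the strand of the gene, and a match is a description of the letters only. The CYP2C19 window is chr10:94762431-94762680, plus strand, with the match 123 bases before the start. The CYP2C8 window is chr10:95069498-95069747, minus strand, with the match 53 bases before the start. The CYP2B6 window is chr19:40991032-40991281, plus strand, with the match on the reverse strand 230 bases before the start.
CYP2C19: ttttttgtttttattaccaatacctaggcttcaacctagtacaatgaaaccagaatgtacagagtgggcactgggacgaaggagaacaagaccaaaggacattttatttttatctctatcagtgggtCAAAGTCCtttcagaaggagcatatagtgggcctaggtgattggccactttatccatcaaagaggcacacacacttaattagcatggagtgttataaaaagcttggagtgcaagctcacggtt
CYP2C8: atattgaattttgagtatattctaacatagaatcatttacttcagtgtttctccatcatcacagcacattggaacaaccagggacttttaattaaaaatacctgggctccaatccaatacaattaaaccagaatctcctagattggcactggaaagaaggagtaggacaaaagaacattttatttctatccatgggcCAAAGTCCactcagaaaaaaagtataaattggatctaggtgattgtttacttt
CYP2B6: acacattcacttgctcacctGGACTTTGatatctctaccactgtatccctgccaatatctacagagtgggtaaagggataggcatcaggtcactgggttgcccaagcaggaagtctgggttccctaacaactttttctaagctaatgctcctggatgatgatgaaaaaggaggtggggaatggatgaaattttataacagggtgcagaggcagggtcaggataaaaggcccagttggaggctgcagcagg
HNF4A itself was at 53.5 and 20.2 CPM in the OA controls and 71.6 and 63.5 CPM in OA, and its difference did not pass the test (log2 fold change 1.17, edgeR adjusted p = 0.0985). At ULA day 34 it stood at 0.27 and 2.45 CPM against 17.5, 13.4 and 13.8 CPM at day 21, a fall (log2 fold change -3.56, edgeR adjusted p = 0.024). HNF4A was tested with TGFB1 and PA as well, and its values there are not read here. A link between HNF4A and the members with the motif was not tested.

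OA gave the broadest change in the family. Of the 25 members, 12 rose and 3 fell against the OA control, where 43.3% of the 19366 genes tested changed (21.7% higher and 21.6% lower). The members called higher, 12 of 25, are to be read against that high background. Over all 25 members the median log2 fold change was 0.89, beside -0.08 over all genes tested. All calls come from edgeR's quasi-likelihood test on the summed counts at an adjusted p under 0.05 (Benjamini-Hochberg over all genes tested), with 2 libraries per group. How many of all genes had groups without overlap was not counted. Statements on overlap in what follows therefore describe the libraries only and add nothing to the test. Of the 13 members of families 1 to 3 on the drug and foreign-compound list, 8 rose and 1 fell, with a median log2 fold change of 2.56.

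The CYP2C cluster on chromosome 10 (GRCh38, GENCODE 44) holds neighbouring drug-metabolizing genes, and CYP2C18, CYP2C19 and CYP2C8 rose with OA. CYP2C18 (chr10:94683729-94736190), whose messenger is known to yield little protein in liver, was at 1.67 and 1.196 CPM in the controls and 29.1 and 28.5 CPM with OA, which is 4.65 ± 0.47 on the log2 scale (log2 fold change ± SE here and in what follows; edgeR adjusted p = 1.1e-05). CYP2C19 (chr10:94762681-94855547), which oxidizes proton pump inhibitors and activates clopidogrel, was at 6.59 and 3.17 CPM in the controls and 50.5 and 47.8 CPM with OA (log2 fold change 3.64 ± 0.51, edgeR adjusted p = 1.1e-04). For both genes each OA library lay far above each control, with no overlap. CYP2C8 (chr10:95036772-95069497), which oxidizes paclitaxel and arachidonic acid, went from 1.99 and 1.54 CPM to 7.97 and 9.70 CPM (log2 fold change 2.65 ± 0.68, edgeR adjusted p = 0.00691). The CYP2C8 groups did not overlap either, but its call was lost without OA control replicate 2 (adjusted p = 0.0643).

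CYP3A5, a drug-metabolizing enzyme of adult liver and gut (chr7:99648194-99679996), had the smallest p-value of the family with OA. Its level was 6.73 and 6.93 CPM in the controls and 80.3 and 63.5 CPM with OA (log2 fold change 3.73 ± 0.27, edgeR adjusted p = 1.2e-06). Both OA libraries were above the other 4 libraries of their experiment, the untreated ones included (14.9 and 21.4 CPM). CYP3A7, its fetal liver paralog, stayed at 0.251 to 0.683 CPM in these 4 libraries and did not pass the test. CYP2B6 (chr19:40991282-41018398), a CAR target that oxidizes bupropion and efavirenz, was at 5.84 and 3.74 CPM in the controls and 32.5 and 35.4 CPM with OA (log2 fold change 3.14 ± 0.44, edgeR adjusted p = 1.1e-04). CYP1A1 (chr15:74719542-74725536), the AHR target that oxidizes polycyclic aromatic hydrocarbons, went from 0.555 and 0.968 CPM to 8.54 and 10.1 CPM (log2 fold change 3.96 ± 0.56, edgeR adjusted p = 1.2e-04). CYP2J2 (chr1:59893308-59926773), an epoxygenase of arachidonic acid, went from 2.85 and 2.33 CPM to 12.6 and 11.7 CPM (log2 fold change 2.56 ± 0.29, edgeR adjusted p = 2.2e-05). In none of these 3 did the groups overlap.

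**Figure D2:**
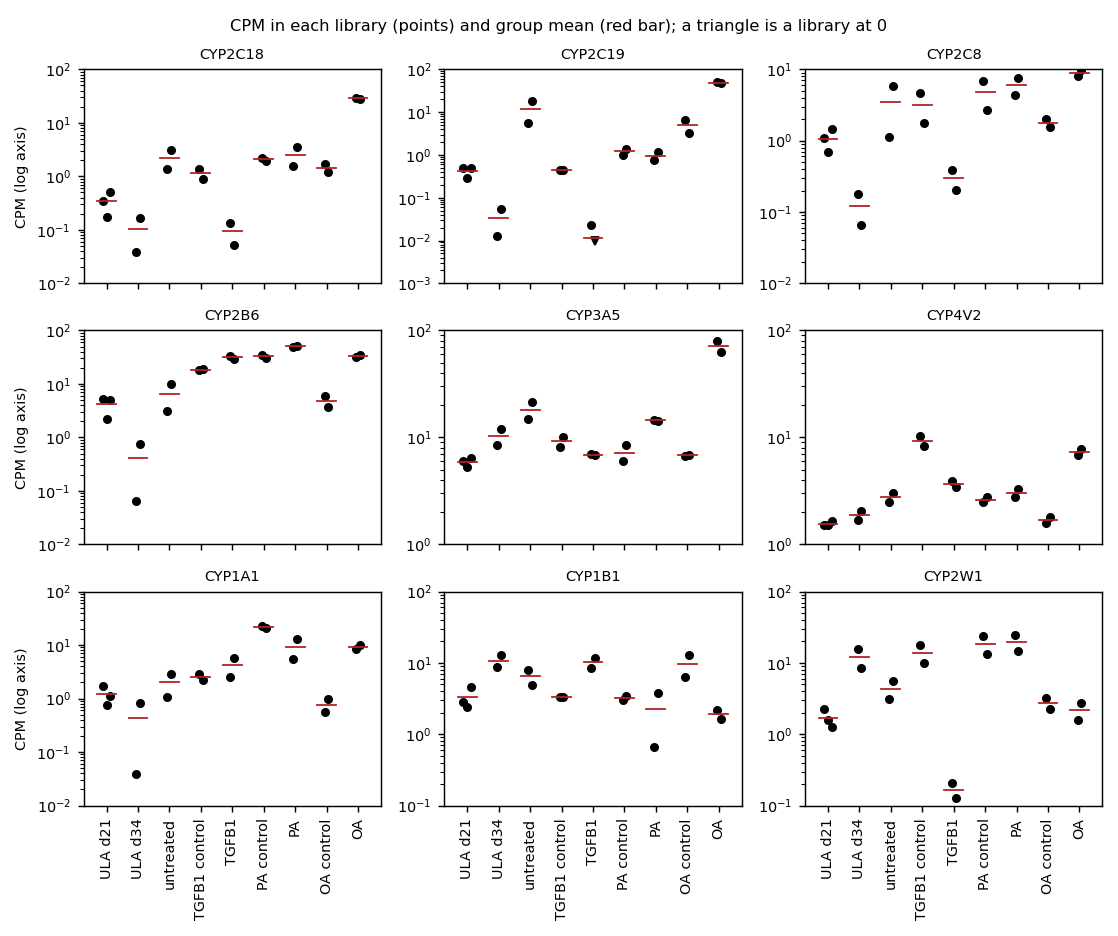
Level of 9 members in each library (CPM, log axis; dots are libraries, bars the group means, triangles mark 0). CYP2C18, CYP2C19, CYP2C8 and CYP3A5 stand highest in OA within their experiment, CYP1B1 lowest in OA, and CYP2W1 lowest in TGFB1, at 0.204 and 0.128 CPM.

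Outside the drug-metabolizing list, OA raised a fatty acid hydroxylase, a cholesterol synthesis enzyme and the orphan member. CYP4V2 (chr4:186191567-186213463), the fatty acid hydroxylase mutated in Bietti crystalline dystrophy, was at 1.59 and 1.80 CPM in the controls and 6.80 and 7.75 CPM with OA (log2 fold change 2.44 ± 0.23, edgeR adjusted p = 7.4e-06). CYP51A1 (chr7:92084987-92134803) was at 115 and 118 CPM in the controls, 526 and 429 CPM with OA and 212 and 248 CPM in untreated OS libraries (log2 fold change against the controls 2.37 ± 0.35, edgeR adjusted p = 1.7e-04). OA libraries were thus the highest of both genes among the 6 of this experiment, without overlap. CYP17A1 was at 0.107 and 0.190 CPM in the controls and 2.83 and 1.17 CPM with OA (log2 fold change 4.08 ± 0.60, edgeR adjusted p = 1.5e-04); it reached 1 CPM only in OA and passed the filter on low counts only through libraries where it is high, so it had to differ, and its call among the 12 supports nothing. CYP20A1 (chr2:203238977-203306026) went from 18.8 and 21.0 CPM to 45.1 and 46.4 CPM (log2 fold change 1.54 ± 0.22, edgeR adjusted p = 1.2e-04). The untreated OS libraries, at 50.9 and 33.3 CPM of CYP20A1, lay on both sides of the OA libraries.

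The 3 members that fell with OA act on oestrogens, oxysterols and vitamin A. CYP1B1 (chr2:38066973-38109902), an extrahepatic enzyme that hydroxylates oestradiol, was at 6.27 and 12.9 CPM in the controls and 2.20 and 1.65 CPM with OA (log2 fold change -1.95 ± 0.52, edgeR adjusted p = 0.00923). CYP39A1, an oxysterol hydroxylase of bile acid synthesis, was at 1.34 and 1.44 CPM in the controls and 0.573 and 0.459 CPM with OA (log2 fold change -1.09 ± 0.32, edgeR adjusted p = 0.0139). CYP27C1, which desaturates vitamin A, was at 4.66 and 6.51 CPM in the controls and 2.15 and 3.23 CPM with OA (log2 fold change -0.71 ± 0.26, edgeR adjusted p = 0.0392). None of these groups overlapped, yet each call was lost when some single libraries were left out. The adjusted p of CYP1B1 was 0.0906 with OA control replicate 2 left out and 0.0731 with OA replicate 2 left out. That of CYP39A1 was 0.0581 or 0.0557 when OA control replicate 1 or 2 was left out, and 0.11 when OA replicate 2 was. That of CYP27C1 was 0.0505 or 0.233 when OA control replicate 1 or 2 was left out, and 0.303 when OA replicate 1 was. Leaving out any of these libraries left 1 in its group, so the spread came from the other groups of the fit. Every member called with OA kept the direction of its fold change in those fits.

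Several well-expressed members did not pass the test with OA. CYP27A1, the mitochondrial sterol hydroxylase of the acidic bile acid pathway, was at 15.9 and 13.7 CPM in the controls and 21.1 and 13.2 CPM with OA, overlapping ranges (log2 fold change 0.55, 95% interval 0.01 to 1.09, edgeR adjusted p = 0.0927). CYP2S1, an epithelial member, was at 19.0 and 12.2 CPM and 26.0 and 20.5 CPM (log2 fold change 0.89, 95% interval -0.07 to 1.86, edgeR adjusted p = 0.123). CYP2W1, a member of fetal gut and colorectal tumours, had an interval of -0.97 to 0.92, and CYP2R1 one of -0.78 to 0.32. Of the 4 retinoid and vitamin D members 1 was called lower, near the 21.6% of all genes called lower, and their median on the log2 scale was -0.80.

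**Figure D3:**
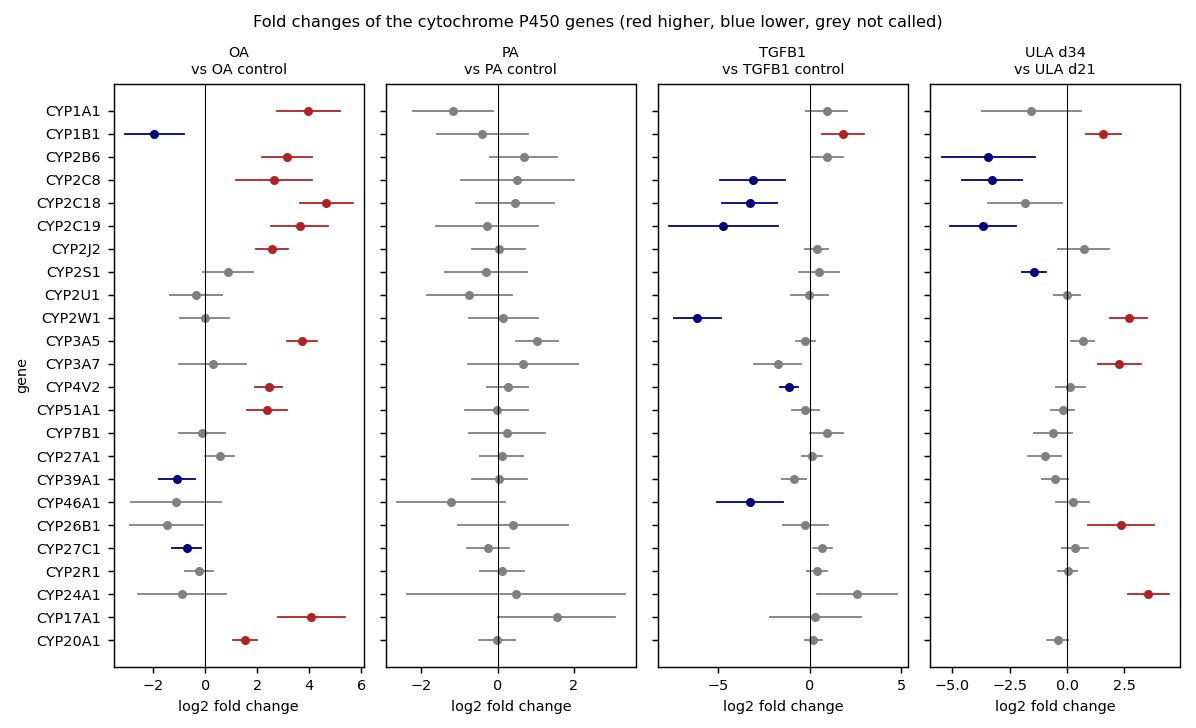
Log2 fold change of each member with its 95% interval in 4 comparisons (OA, PA and TGFB1 against their controls, ULA day 34 against day 21); red is called higher, blue called lower, grey not called. Among the 24 members drawn OA has 11 red and 3 blue, PA none, TGFB1 1 red and 6 blue, and ULA 5 red and 4 blue.

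The cell makeup of the OA libraries differed from that of their controls in the same direction as several members. Summed gut epithelial markers (13 genes) were at 2561 and 4824 CPM in the OA controls and at 22890 and 28080 CPM with OA. Summed mesenchymal markers (13 genes) fell from between 2828 and 4581 CPM to between 104 and 136 CPM, with TCF21 at 0 in both OA libraries, and hepatocyte markers stood at 9093 and 12650 CPM in the controls and 24580 and 25560 CPM with OA. Cycling markers were at 530 and 571 CPM in the controls and 181 and 193 CPM with OA, neuroendocrine markers at 79.9 and 144 CPM and then 10.85 and 23.9 CPM, and neural markers at 259.6 and 361 CPM and then 113 and 127 CPM. The part of these classes in the members' changes was not tested. Cells were clustered without the P450 genes. A gut epithelial-like cluster (cluster 9, led by FABP2, APOA4 and KRT20) held 55.0% and 39.7% of OA cells and 0.26% and 0.19% of control cells. That cluster carried 88.4% of the CYP17A1 counts, 73.9% of CYP1A1, 67.9% of CYP2C19, 66.8% of CYP2B6, 62.6% of CYP2C18 and 61.0% of CYP3A5. It also held 39215937 of the 54081562 UMI counts of OA replicate 1 and 32806890 of the 52253697 of OA replicate 2. The gene shares, taken over all libraries of the experiment, are to be read against that part of the counts and do not show a concentration in this cluster by themselves. An unnamed cluster led by PSCA, OLFM4 and MUC5AC (cluster 2) held 18.6% and 42.4% of OA cells and at most 0.29% of cells elsewhere, with CYP3A5 at 63.1 CPM and CYP2C18 at 39.3 CPM. Each of these clusters came almost wholly from OA libraries, so a change of cell makeup and a change within cells cannot be told apart there.

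Values within a class are given for clusters 8 and 15 only. Clusters 0, 1, 3 and 7 also held over 50 cells in each OA control and OA library, and their values are not read here. In the hepatocyte-like cluster (cluster 8, led by GSTA1, FGG and TTR) OA replicate 2 had under 50 cells and is not read here, and no test was run. That cluster held 2.51% and 1.74% of control cells and 2.75% and 0.465% of OA cells. Its share was thus not higher in both OA libraries, unlike the summed hepatocyte markers. CYP3A5 in that cluster was at 101 CPM in OA replicate 1, 21.5 and 41.2 CPM in the controls and 46.4 and 53.7 CPM in untreated libraries. CYP2C19 was at 61.9 CPM, against 37.9 and 27.1 CPM in the controls, and CYP2C18 at 24.7 CPM, against 10.2 and 5.61 CPM. Each of the 3 was highest in the OA library of this cluster, as was CYP51A1, at 1370 CPM against 190 and 244 CPM in the controls. CYP2B6 did not follow: it was at 10.7 CPM with OA, between the controls at 8.59 and 13.1 CPM. CYP2S1 was lower, at 16.3 CPM against 45.3 and 43.5 CPM. In a squamous-like cluster present in all 6 libraries (cluster 15), CYP20A1 was at 43.6 and 46.2 CPM with OA and 21.5 and 15.7 CPM in the controls, whereas CYP3A5 was at 8.93 and 3.15 CPM with OA and 8.42 and 9.86 CPM in the controls. In that cluster, with almost no CYP2C counts, CYP20A1 was higher in both OA libraries than in both controls, a difference that was not tested. The untreated libraries held 887 and 249 cells of that cluster, and their values there are not read here. In whole libraries the untreated values of CYP20A1 lay on both sides of the OA values.

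**Figure D4:**
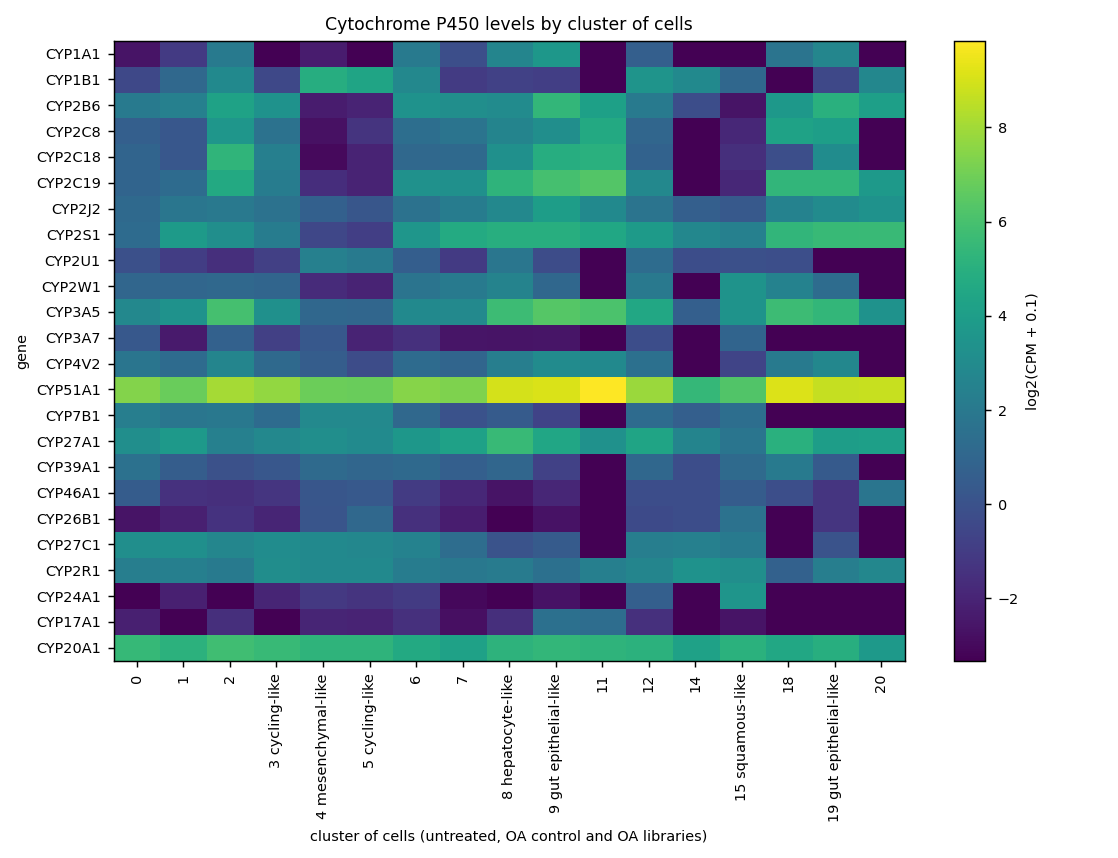
Heat map of member levels (log2(CPM + 0.1)) in the cell clusters of the OA experiment with at least 50 cells, counts summed over its 6 libraries. Cluster 9 is almost wholly from OA libraries and cluster 8 mostly from untreated ones, so the pooled levels also carry the library mix: CYP2C19 is at 61.6 CPM, CYP3A5 at 82.7 CPM and CYP2B6 at 42.1 CPM in cluster 9, CYP27A1 at 47 CPM in the hepatocyte-like cluster 8, and CYP1B1 at 29.6 CPM in the mesenchymal-like cluster 4.

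The partners of the P450 enzymes moved with OA as well. Of 10 electron donor genes 5 rose and 1 fell: NQO1, a quinone reductase, went from 65.8 and 37.0 CPM to 344 and 339 CPM (log2 fold change 3.04, edgeR adjusted p = 1.6e-04), and POR, the main electron donor, from 39.7 and 48.6 CPM to 73.5 and 71.5 CPM (1.06, edgeR adjusted p = 0.00176). FDX1, mitochondrial ferredoxin, rose by 1.03 (edgeR adjusted p = 0.00821). Of 11 haem genes 4 rose and 3 fell, led by ALAS1, the rate-limiting enzyme of haem synthesis, at 18.9 and 19.3 CPM in the controls and 62.0 and 55.4 CPM with OA (log2 fold change 1.95, edgeR adjusted p = 8.9e-06). PPOX, a later enzyme of the same pathway, fell (log2 fold change -1.84, edgeR adjusted p = 9.1e-05). Among 22 regulators 12 rose and 1 fell, and the bile acid receptor NR1H4 was at 12.5 and 7.27 CPM in the controls and 70.2 and 48.9 CPM with OA (log2 fold change 2.91, edgeR adjusted p = 3.8e-05). Its target NR0B2 rose by 2.47 (edgeR adjusted p = 5.5e-05). Of 24 conjugation genes, which finish drug clearance, 17 rose and none fell; UGT2B11, a glucuronosyltransferase, went from 6.80 and 5.09 CPM to 66.0 and 53.7 CPM (log2 fold change 3.66, edgeR adjusted p = 6.9e-06). These counts stand against the 43.3% of all genes that changed.

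Against untreated organoids the OA control had 1 member called, where 0.573% of genes changed (0.0826% higher and 0.491% lower). CYP3A5 was at 14.9 and 21.4 CPM in untreated libraries and 6.73 and 6.93 CPM in the OA control (log2 fold change -1.27 ± 0.25, edgeR adjusted p = 0.0472). The groups did not overlap, but the call was lost without untreated replicate 2 (adjusted p = 0.104), OA control replicate 1 (0.341) or OA control replicate 2 (0.39). The members' median log2 fold change was -0.49, beside 0.03 over all genes tested. This comparison shares the OA control libraries with that of OA, so a low control raises one fold change and lowers the other. No gene of the 4 partner lists passed the edgeR test, with an unadjusted p under 0.05 for 1 of 10 electron donor, 3 of 11 haem, 4 of 22 regulator and 6 of 24 conjugation genes, beside 14.6% of all genes.

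No member was called with PA. The edgeR test called 0 of 25, where 0.0465% of genes (9 of 19366) were called, 3 members (and 2.79% of all genes) had an unadjusted p under 0.05, and DESeq2 also called 0. CYP3A5 had the smallest p of the family: it was at 5.96 and 8.50 CPM in the controls and 14.5 and 14.3 CPM with PA, without overlap (log2 fold change 1.03 ± 0.26, 95% interval 0.47 to 1.58, edgeR adjusted p = 0.486). CYP1A1 was at 22.5 and 21.1 CPM in the controls and 5.50 and 13.0 CPM with PA, also without overlap (log2 fold change -1.17, 95% interval -2.22 to -0.12, edgeR adjusted p = 1). CYP1A1 counts lay mainly (69.9%) in a cluster led by PHGR1, TFF2 and APOA4, where it was at 67.0 and 62.1 CPM in the controls and 20.2 and 34.8 CPM with PA. CYP17A1, the other of the 3, had 0.504 and 0.481 CPM with PA, against 0 and 0.221 CPM; the 0 comes from the shallowest library, where 3 counts would be 0.436 CPM. CYP2B6, at 34.3 and 30.9 CPM in the controls and 49.9 and 50.6 CPM with PA, also did not overlap between groups and was not called. The members' median log2 fold change was 0.12, beside 0.02 over all genes, and no gene of the 4 partner lists was called by edgeR or had an unadjusted p under 0.05. The fold changes of PA and OA rest on separate controls, both at 500 µM, and their difference was tested in the same fit. It was called in 9 members, all higher for OA, where 20.5% of genes were called (10.2% higher); 6 of the 9 are on the drug-metabolizing list, and the others are CYP4V2, CYP51A1 and CYP20A1.

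TGFB1 lowered CYP2C18, CYP2C8, CYP2C19 and CYP2W1, among other members. Of the 25 members, 7 fell and 1 rose, where 22.2% of genes changed (10.9% higher and 11.3% lower). The members called lower, 7 of 25, are read against that 11.3%. Over all 25 members the median log2 fold change was -0.03, close to the -0.05 over all genes tested. CYP2W1 (chr7:983181-989640) was at 18.0 and 9.93 CPM in the controls and 0.204 and 0.128 CPM with TGFB1 (log2 fold change -6.12 ± 0.60, edgeR adjusted p = 1.7e-05). CYP2C18 was at 1.39 and 0.899 CPM in the controls and 0.136 and 0.051 CPM with TGFB1 (log2 fold change -3.27 ± 0.69, edgeR adjusted p = 0.00461). In both genes every TGFB1 library was below every control. CYP2C8 was at 4.62 and 1.76 CPM in the controls and 0.386 and 0.204 CPM with TGFB1 (log2 fold change -3.11 ± 0.82, edgeR adjusted p = 0.0165). CYP2C19 had 30 counts in the controls, at 0.443 and 0.440 CPM, and 1 count with TGFB1, at 0.0227 CPM and 0; the ratio of the rates was 36.7 with a 95% interval of 6.1 to 1500 that covers counting error only (edgeR adjusted p = 0.0263). A count of 0 in TGFB1 replicate 2 allows up to 0.0765 CPM.

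Beyond the drug-metabolizing list, TGFB1 lowered a neuronal cholesterol enzyme and a fatty acid enzyme. CYP46A1, the cholesterol hydroxylase best known from neurons, was at 1.90 and 1.61 CPM in the controls and 0.136 and 0.178 CPM with TGFB1 (log2 fold change -3.25 ± 0.84, edgeR adjusted p = 0.0146). CYP4V2 was at 10.3 and 8.34 CPM in the controls and 3.91 and 3.44 CPM with TGFB1 (log2 fold change -1.13 ± 0.22, edgeR adjusted p = 0.00325). The only member that rose was CYP1B1, at 3.29 and 3.33 CPM in the controls and 8.47 and 11.9 CPM with TGFB1 (log2 fold change 1.80 ± 0.53, edgeR adjusted p = 0.027). None of these groups overlapped. Leaving out any 1 of the 4 libraries left 1 in its group, so the spread came from the other groups of the fit. In those fits the log2 fold change lay between -6.51 and -5.77 for CYP2W1 and between -4.15 and -2.77 for CYP2C18. For CYP4V2 it lay between -1.23 and -1.03. The calls of CYP1B1 and CYP2C19 were lost without each of the 4 libraries. That of CYP2C8 was lost without TGFB1 control replicate 1, TGFB1 replicate 1 or TGFB1 replicate 2, and that of CYP46A1 without TGFB1 replicate 1 or 2.

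CYP2B6 and CYP3A5 gave no call with TGFB1. CYP2B6 was at 18.0 and 18.9 CPM in the controls and 32.8 and 29.8 CPM with TGFB1, higher in both libraries (log2 fold change 0.95, 95% interval 0.07 to 1.83, edgeR adjusted p = 0.112). CYP3A5 was at 8.16 and 10.2 CPM in the controls and 7.04 and 6.81 CPM with TGFB1 (log2 fold change -0.23, 95% interval -0.77 to 0.31, edgeR adjusted p = 0.529). CYP27C1 was at 20.9 and 14.2 CPM in the controls and 20.5 and 28.3 CPM with TGFB1, with overlap (log2 fold change 0.69, edgeR adjusted p = 0.0607). Of the 13 drug-metabolizing members 1 was called higher and 5 lower, beside 10.9% and 11.3% of all genes, and their median on the log2 scale was -0.24. Against OA, the difference of fold changes was called in 14 members, 12 higher and 2 lower for OA, where 31.8% of genes were called (16.4% higher and 15.4% lower).

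The clusters that filled the TGFB1 libraries were not those of the controls. A cluster led by CADPS and CHGA (cluster 0) held 66.4% and 58.0% of control cells and 0.93% and 0.98% of TGFB1 cells, and one led by FABP1, APOA4 and TFF3 (cluster 1) held 16.3% and 20.4%, and 1.15% and 1.2%. Together they carried most counts of CYP2W1 (49.8% and 41.2%), and cluster 1 alone 90.3% of CYP2C19. In cluster 0 CYP2W1 was at 15.5 and 9.68 CPM in the controls and 0 in the few TGFB1 cells. Those cells held only 311225 and 284607 UMI counts in TGFB1 replicates 1 and 2, so a 0 there can hide a level of several CPM. In cluster 1 CYP2W1 was at 34.0 and 17.5 CPM in the controls and at 9.99 and 7.38 CPM, from 4 and 3 counts, with TGFB1. A cluster led by KRT7 and MMP7 (cluster 5) held 56.3% and 67.2% of TGFB1 cells and 0.55% and 2.74% of control cells. There CYP2B6 was at 35.5 and 34.2 CPM with TGFB1 and CYP2W1 at 0.112 and 0.0377 CPM. The controls held 53 and 233 cells of that cluster, and their levels there are not read here. Gut epithelial markers summed to 923 and 925 CPM in the controls and 179 and 190 CPM with TGFB1, whereas hepatocyte markers were not lower, at 2724 and 4014 CPM in the controls and 4572 and 5403 CPM with TGFB1. Marker sums of other classes moved too. Cycling markers went from between 485 and 651 CPM to between 47.2 and 50.3 CPM, immune markers from between 202 and 230 CPM to between 34.6 and 46.96 CPM, mesenchymal markers from between 674 and 691 CPM to between 1658 and 2053 CPM, squamous markers from between 20.1 and 23.01 CPM to between 161.5 and 165 CPM, and neural markers from between 131 and 144 CPM to between 338 and 349.5 CPM. No cluster of the TGFB1 experiment was named immune, and 1 to 3 of the 10 immune genes were at 0 in each of its libraries. The part of cell makeup in these calls was not tested.

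Partner genes called with TGFB1 are read against the 22.2% of all genes called (10.9% higher and 11.3% lower). Of 22 regulators 1 rose and 6 fell: FOXA2, a pioneer factor of endoderm, was at 87.3 and 39.5 CPM in the controls and 4.50 and 6.04 CPM with TGFB1 (log2 fold change -3.35, edgeR adjusted p = 2e-05), and ONECUT1, a liver and biliary factor, at 150 and 137 CPM and then 9.22 and 10.2 CPM (-3.69, edgeR adjusted p = 1.2e-04). Of 24 conjugation genes 2 rose and 11 fell. GSTA1, a glutathione transferase of hepatocytes, was at 17.1 and 22.7 CPM in the controls and 0.50 and 0.408 CPM with TGFB1 (edgeR adjusted p = 1.2e-04), and EPHX2, an epoxide hydrolase, at 22.2 and 24.8 CPM and then 4.72 and 4.62 CPM (-2.14, edgeR adjusted p = 7.8e-05). Electron donors had 2 of 10 called, both higher, and none of 11 haem genes was called by edgeR (4 had an unadjusted p under 0.05, the share of all genes being 36%).

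Between day 21 and day 34 of ULA culture, 5 members rose and 4 fell of the 24 tested, where 15.6% of the 22261 genes tested changed (8.43% higher and 7.19% lower). CYP17A1 did not pass the filter on low counts. The members' median log2 fold change was -0.10, beside 0.01 over all genes. CYP24A1 (chr20:54153446-54173986), which breaks down active vitamin D, was at 0.408, 0.206 and 0.402 CPM at day 21 and 3.42 and 5.29 CPM at day 34 (log2 fold change 3.54 ± 0.38, edgeR adjusted p = 0.00255). CYP2W1 was at 2.25, 1.59 and 1.26 CPM at day 21 and 15.5 and 8.40 CPM at day 34 (log2 fold change 2.68 ± 0.34, edgeR adjusted p = 0.00433). CYP3A7 was at 1.69, 0.779 and 1.18 CPM at day 21 and 4.46 and 8.44 CPM at day 34 (log2 fold change 2.28 ± 0.40, edgeR adjusted p = 0.0119). In all 3 both day 34 libraries lay above the 3 of day 21. CYP1B1 was at 2.85, 2.39 and 4.62 CPM and then 8.83 and 12.8 CPM (log2 fold change 1.58 ± 0.33, edgeR adjusted p = 0.0212). CYP26B1, which clears retinoic acid, was at 1.06, 1.35 and 0.791 CPM and then 9.94 and 1.91 CPM (log2 fold change 2.34 ± 0.62, edgeR adjusted p = 0.0436). Day 34 replicate 1 was far above the other libraries, and without it the log2 fold change was 0.72 (adjusted p = 0.171).

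Of the 13 drug-metabolizing members tested in ULA culture, 4 fell, and 3 rose (CYP1B1, CYP2W1 and CYP3A7), beside 7.19% lower and 8.43% higher of all genes. CYP2B6 was at 5.17, 2.25 and 5.05 CPM at day 21 and 0.0642 and 0.757 CPM at day 34 (log2 fold change -3.44 ± 0.87, edgeR adjusted p = 0.0386). CYP2C8 was at 1.09, 0.690 and 1.44 CPM and then 0.180 and 0.0658 CPM (edgeR adjusted p = 0.0112), and CYP2C19 at 0.487, 0.294 and 0.499 CPM and then 0.0129 and 0.0548 CPM (log2 fold change -3.68 ± 0.61, edgeR adjusted p = 0.0102). CYP2S1 was at 12.4, 9.196 and 13.0 CPM and then 4.92 and 4.29 CPM (log2 fold change -1.45 ± 0.23, edgeR adjusted p = 0.00846). In each the day 34 libraries were below all of day 21. CYP2C18 and CYP27A1 gave no call (edgeR adjusted p = 0.11 and 0.0684), although their day 34 libraries too were below all of day 21. CYP3A5, at 6.01, 5.26 and 6.41 CPM and then 8.54 and 11.9 CPM, was higher without overlap and not called (log2 fold change 0.67, edgeR adjusted p = 0.0834). Leaving out a day 34 library left 1 in its group, with the spread from day 21 alone. Over the 5 fits the log2 fold change lay between 2.18 and 3.04 for CYP2W1 and between 3.17 and 3.82 for CYP24A1. Only CYP2W1 and CYP24A1 kept their calls without any 1 of the day 21 libraries. The other calls were lost without some day 21 library: CYP1B1 without replicate 1 (adjusted p = 0.104) or 2 (0.0749), CYP26B1 without 1 (0.151), 2 (0.108) or 3 (0.167), CYP3A7 without 3 (0.0791), CYP2C19 without 1 (0.0537) or 3 (0.0616), CYP2C8 without 1 (0.0561) or 3 (0.0633), CYP2B6 without 1 (0.132), 2 (0.0746) or 3 (0.139), and CYP2S1 without 1 (0.0587) or 3 (0.0554).

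The ULA clusters place these genes in cells that were unevenly spread between the days. A hepatocyte-like cluster (cluster 4, led by FABP1, APOA2 and SERPINA1) held 21.3%, 13.0% and 20.9% of day 21 cells and 0.95% and 8.46% of day 34 cells, and it carried 97.8% of the CYP2B6 counts, 92.7% of CYP2C19 and 74.4% of CYP2C8. It also had 7 gut epithelial markers among its top 50 genes, beside 9 of hepatocytes, and summed gut epithelial markers were at 1462 to 1967 CPM at day 21 and 11.88 to 142.1 CPM at day 34. Within it CYP2B6 was at 13.9, 8.76 and 13.3 CPM at day 21 and 5.69 CPM in day 34 replicate 2. CYP2S1 was densest, at 131 CPM, in a pluripotent- or germ-like cluster of 247 cells (cluster 8). CYP2W1 and CYP3A7 were densest in 2 unnamed clusters of day 34, each found mostly in 1 library: one led by SPP1 and SPRR2F (cluster 9, 15.2% of replicate 2), at 32.1 and 29.2 CPM, and one led by KRT6A and SLC2A1 (cluster 11, 45.9% of replicate 1), at 28.9 and 8.18 CPM. CYP24A1 was at 8.17 CPM in a squamous-like cluster (cluster 14) that held 31.3% of day 34 replicate 2. These clusters were unevenly spread between the 2 day 34 libraries. Summed squamous markers (10 genes) were at 24.7 to 43.8 CPM at day 21 and 813 to 2288 CPM at day 34, and neuroendocrine markers at 27.3 to 37.01 CPM and 74.8 to 99.1 CPM. Neural markers were at 50.96 to 68.51 CPM at day 21 and 79.38 to 126 CPM at day 34. Lower at day 34 were cycling markers (1467 to 1733 CPM at day 21 and 702 to 971 CPM at day 34), immune markers (94.2 to 171 CPM and 14.4 to 39.6 CPM) and pluripotent or germ markers (76.95 to 114 CPM and 25.6 to 38.3 CPM). No ULA cluster was named immune, and 1 or 2 of the 10 immune genes were at 0 in each ULA library. The part of these classes in the calls was not tested.

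Among the partner lists, 8 of 21 regulators fell in ULA culture and none rose, where 15.6% of all genes were called (7.19% lower). PPARG was at 44.98, 32.6 and 40.5 CPM at day 21 and 6.92 and 11.3 CPM at day 34 (log2 fold change -2.24, edgeR adjusted p = 0.00344), and the drug receptor NR1I2 fell with it (log2 fold change -4.03, edgeR adjusted p = 0.0066). Of 23 conjugation genes 2 rose and 6 fell; SULT1E1, the oestrogen sulfotransferase, was at 22.5, 19.6 and 27.1 CPM and then 66.2 and 87.9 CPM (log2 fold change 1.61, edgeR adjusted p = 0.00433). Electron donors had 2 of 10 lower, NQO1 (-1.95, edgeR adjusted p = 0.0146) and PGRMC1 (-1.01, edgeR adjusted p = 0.0173), and none of 11 haem genes was called by edgeR (6 had an unadjusted p under 0.05, beside 32.8% of all genes).

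In the OA and TGFB1 experiments CYP1B1 counts came mostly from mesenchymal-like cells, and its calls there were lost when those cells were left out. In the OA experiment the mesenchymal-like cluster carried 63.2% of its counts and held 26.9% and 28.9% of control cells, 32.8% and 15.15% of untreated cells and 0.874% and 0.559% of OA cells. In the TGFB1 experiment 2 mesenchymal-like clusters together held 3.93% and 4.15% of control cells and 20.2% and 12.5% of TGFB1 cells. The first of them (cluster 3) carried 69.4% of the CYP1B1 counts and held 3.91% and 4.08% of control cells and 6.91% and 9.05% of TGFB1 cells, and the other (cluster 6) carried 17.7%. Within cluster 3 CYP1B1 was at 54.8 and 53 CPM in the controls and 54.2 and 84.1 CPM with TGFB1, values that overlap. When mesenchymal-like cells were left out and all genes refitted, CYP1B1 was no longer called with OA (log2 fold change -0.40, edgeR adjusted p = 0.62) or with TGFB1, where its fold change was little smaller (1.59 against 1.80 in all cells, edgeR adjusted p = 0.11). In ULA culture it was still called (1.78, edgeR adjusted p = 0.022), and there most of its counts lay in other clusters, at 23.4 CPM in cluster 9 and 9.46 CPM in the squamous-like cluster 14; that call was lost without day 21 replicate 1 (adjusted p = 0.109) or 2 (0.0825). CYP27C1 also lost its call with OA (-0.61, edgeR adjusted p = 0.126). The remaining counts were 12 members higher and 1 lower with OA, where 38.3% of genes were called, 1 higher and 7 lower with TGFB1 (24.1%), 0 with PA (0.0534%), and 4 higher and 4 lower in ULA culture (15.5%, with 8.24% higher and 7.24% lower). The call higher with TGFB1 was then CYP24A1 (log2 fold change 3.83, edgeR adjusted p = 0.0397), lost without each of the 4 libraries (adjusted p up to 0.183), and the call lower with OA was CYP39A1 (-1.10), lost likewise (up to 0.128). In ULA culture CYP26B1 lost its call (2.40, edgeR adjusted p = 0.0651), and none of the 8 remaining calls held without every single library in turn. Few mesenchymal cells were removed from ULA day 34 replicate 1: 1.69% of its cells were left out, although its mesenchymal markers summed to 4779 CPM, the highest of the 5 ULA libraries, and an unnamed cluster led by MGP with 5 mesenchymal markers among its top 50 genes (cluster 10, 35.4% of that library) was kept. In the OA experiment an unnamed cluster led by LGALS1, ACTA2 and ACTG2 with 2 such markers (cluster 14) was kept too. It held 4.05% and 11.4% of OA control cells and 0.0621% of OA replicate 2. Cluster 12, led by FGG, MT2A and ACTA2 with 4 such markers, also stayed in, at 1.81% and 2.55% of OA control cells and 0.0647% of OA replicate 1. At a leiden resolution of 1.0 in place of 0.5 the mesenchymal-like share of the day 21 libraries was 6.73%, 9.62% and 5.24% in place of 22.9%, 35.3% and 20.7%. The ULA refit at 1.0 nevertheless called 4 members higher and 3 lower, beside 4 and 4 at 0.5. Over all genes it called 3123, beside 3404 at 0.5.

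**Figure D5:**
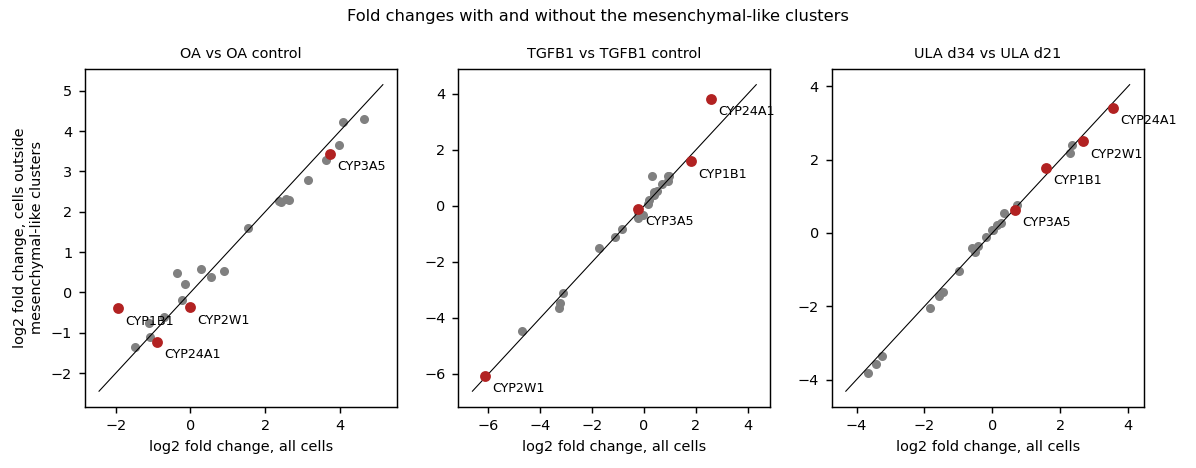
Log2 fold change of each member in all cells (x axis) against that outside mesenchymal-like clusters (y axis), for OA, TGFB1 and ULA, with the line of equality. Most members lie near the line; CYP1B1 moves from -1.95 to -0.40 in the OA panel.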

How the data were processed

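Single-cell 3′ RNA-seq matrices (10x Genomics) of 19 libraries were analysed as deposited. Values are whole-number UMI counts per gene and cell, deposited by the authors after Cell Ranger 3.0.2 on GRCh38, per the submitters' processing notes; per the file headers, the OA and untreated OS matrices come from version 6.0.2. The cell filter required at least 500 genes and allowed at most 20% mitochondrial counts, and no doublet caller was run. Counts of kept cells were summed per library and tested with edgeR 4.0.16 (R 4.3.3; TMM, filterByExpr, quasi-likelihood F test, Benjamini-Hochberg over all genes), in 1 fit for the 14 OS libraries (7 residual degrees of freedom) and another for the 5 ULA libraries (3 residual degrees of freedom). DESeq2 1.42.0 was an alternative. A 95% interval is the fold change plus and minus its SE times the t quantile at the test's degrees of freedom. Cells were clustered per experiment with scanpy 1.11.5 without the P450 and partner genes, and a cluster was named from at least 3 listed markers among its top 50 genes, more than for any other class, unless another class had any marker, and at least as many, among its top 10 genes. Members with an adjusted p under 0.05 and at most 3 genes of each partner list by smallest p were named in each comparison, and HNF4A was named besides. Of the members with a group mean of at least 10 CPM and no call, only some were named. A member left unnamed in a comparison is therefore not always one at a low level. Members, lists and tests were chosen with earlier results of these data known. One item is not reported here. The fits were tested on simulated data. Depth was 6880807 to 91184130 counts per library; counting error limits members under 1 CPM. Alternatives were other normalizations, filters, cell filters, designs, a finer clustering, and leaving out single libraries or the 5% of cells with most UMIs.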

Additional observations from a re-analysis of the deposited data

Results flagged for a closer look

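The change with OA differed from the change with PA in 9 members, and from the change with TGFB1 in 14, by a test of the difference of log2 fold changes in the fit of the 14 OS libraries (edgeR, adjusted over all genes tested). Of all genes tested, 20.5% were called in the first of these tests and 31.8% in the other. Each treatment was set against its own control, but the OA libraries belong to an experiment with another gene list and software version than the PA and TGFB1 libraries, and experiment and treatment cannot be told apart in these differences.

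For OA minus PA the difference was 5.13 for CYP1A1 (edgeR adjusted p = 6.2e-04), which was lower in both PA libraries and higher in both OA libraries than in their controls. It was 4.20 for CYP2C18 (8.8e-04), 3.92 for CYP2C19 (0.00397), 2.71 for CYP3A5 (3.7e-04), 2.53 for CYP2J2 (0.00145) and 2.46 for CYP2B6 (0.0103). CYP51A1 had a difference of 2.40 (0.00594), CYP4V2 of 2.18 (8.8e-04) and CYP20A1 of 1.55 (0.00383). Without PA control replicate 2 the adjusted p was 0.116 for CYP2C19 and 0.0578 for CYP51A1, and without OA control replicate 2 it was 0.0543 for CYP2B6.

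For OA minus TGFB1 the differences were 8.34 for CYP2C19 (edgeR adjusted p = 3.7e-04), 7.92 for CYP2C18 (1.3e-05) and 5.75 for CYP2C8 (0.00118); these genes rose with OA and fell with TGFB1. The value for CYP2C19 rests on 1 count in the TGFB1 libraries and depends on the prior count of the fit. CYP2W1, which fell with TGFB1 and was not called with OA, had a difference of 6.09 (5.3e-05). CYP3A5 had 3.97 and CYP4V2 3.57 (both 6.5e-06), CYP1A1 3.04 (0.00721), CYP51A1 2.61 (0.00132), CYP2B6 2.19 (0.0115), CYP2J2 2.17 (0.00128) and CYP20A1 1.36 (0.00412). CYP1B1, higher with TGFB1 and lower with OA, had a difference of -3.75 (0.00191), and CYP27C1 one of -1.40 (0.00894). Without OA control replicate 2 the adjusted p of CYP2B6 was 0.058, and that of CYP27C1 was 0.0521 without TGFB1 replicate 2 and 0.0516 without OA replicate 1.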

How the results depend on the processing

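Over 1158 values of 85 single-member calls under the alternatives, 1036 kept direction and call, 122 kept direction and lost the call, and none reversed. The counts of members called were more sensitive. With no filter on low counts, 13 members were called with TGFB1 (13 outside mesenchymal-like clusters), 2 with PA (2 outside), 5 in the OA control against untreated, and 14 in OA minus PA. For the OA control against untreated, library totals alone gave 2, DESeq2 2, the stricter cell filter 0 and a fit of only the groups compared 0. Leaving out single libraries gave 4 to 8 members with TGFB1 (4 to 7 outside mesenchymal-like clusters), 0 with PA (0 outside), 10 to 15 with OA (10 to 12 outside), 0 to 1 in the OA control against untreated, 7 to 10 in OA minus PA, 13 to 16 in OA minus TGFB1, and 3 to 13 in ULA culture (1 to 13 outside). Apart from the fewer libraries or other genes tested, the cause was not tested.

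Same-numbered libraries did not pair: the correlations of their deviations were -0.543 for TGFB1, 0.165 for PA, 0.106 for OA control with OA, -0.651 for untreated with OA control, and -0.226 and -0.292 in ULA culture. A fit with the replicate block called 0 members in the OA control against untreated and 0 in ULA culture (0 outside mesenchymal-like clusters), and 22 of the 85 single-member calls were lost. A crossed replicate block, chosen after seeing the data, gave 13 with TGFB1 and 2 in the OA control against untreated.

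Counts over all genes moved as well. For OA, 8378 genes (43.3%) became 10547 (60.6% of those tested) in a fit of only its groups. Members called were then 13 higher and 5 lower. Outside mesenchymal-like clusters 7158 became 9558. For PA, 9 genes became 17 with library totals, 162 with no filter, 4 with the block, 14 without top-UMI cells, 16 with only its groups, 52 with DESeq2, and 0 to 20 without single libraries; outside mesenchymal-like clusters 10 became 18, 116, 2, 15, 18, 43 and 0 to 20. The OA control against untreated went from 111 to 255, 523, 0 (block), 0 (only its groups), 235 (crossed), 706 (DESeq2), and 0 to 164 without single libraries (164 without untreated replicate 2). TGFB1 went from 4295 to between 1704 and 2319 without 3 of its libraries and to 5554 without TGFB1 control replicate 2 (outside, 4512 to between 1881 and 2577, and to 5798). OA fell from 8378 to 5171 (OA control replicate 2 left out) and 5335 (OA replicate 1 left out) (outside, 7158 to 4001 and 4099), and OA minus PA from 3971 to between 2112 and 3388. ULA went from 3476 to 0 with the block, 697 to 1430 without a day 21 library and 7166 without day 34 replicate 2 (outside, 3404 to 0, 381 to 955, and 5303 and 8316 without a day 34 library).

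With library totals in place of TMM, the median of all genes moved from -0.08 to -0.43 for OA, -0.05 to -0.24 for TGFB1 and 0.01 to 0.14 for ULA, and the share of calls that were higher from 50.1% to 30.6%, 49% to 31.6% and 54.0% to 66.6%. The members called were then 12 higher and 4 lower with OA, 1 and 9 with TGFB1, and 6 and 4 in ULA culture. Members under 1 CPM rest on few counts, and 2 libraries per group limit what can be called.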
